A study of Rattus norvegicus with 20 samples.

Results

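The genes described here encode the Wnt ligands, the receptors that bind them and the secreted proteins that raise or lower their activity. Members were taken by name: every gene whose symbol starts with Wnt, Fzd, Rspo, Sfrp or Dkk followed by a digit, together with Lrp5, Lrp6, Ror1, Ror2, Ryk, Frzb and Wif1. This gave 46 genes, each with 1 RefSeq accession, among the 18288 accessions counted. They comprised 18 Wnt ligands, 3 R-spondins, 10 Frizzled receptors, 5 other receptors and 10 secreted inhibitors. Expression was measured by poly(A) RNA sequencing in prefrontal cortex and nucleus accumbens of male rats of the inbred strain Fischer344/Jcl, with no transgene or induced mutation named in the labels. From day 21 to day 39 of life the animals were fed AIN-93G, a purified rodent diet that served as the standard, or feed low in iron, and tissue was taken at 13 weeks of age, so all groups were sampled as adults, weeks after the days on which the diets are labelled to differ. Each of the 4 combinations of region and diet had 5 libraries, numbered 1 to 5. The labels do not say whether each library came from 1 animal, and the p-values below rest on the spread among libraries, which may be technical.

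Wnt proteins are lipid-modified glycoproteins that act over short distances. They bind Frizzled receptors, and with the coreceptors Lrp5 or Lrp6 they stabilise beta-catenin, which drives transcription with TCF/LEF factors, while Ror1, Ror2 and Ryk carry signals that need no beta-catenin. R-spondins bind Lgr receptors and keep the ubiquitin ligases Rnf43 and Znrf3 from removing Frizzled proteins from the membrane. Secreted Frizzled-related proteins (Sfrp genes and Frzb) and Wif1 bind Wnt ligands, and Dkk1 and its closer relatives among the Dickkopf proteins bind Lrp5 and Lrp6. In the forebrain these genes pattern the embryonic cortex and, later, take part in synapse and vessel formation.

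The 250 bases before the annotated start of 4 members are shown because the comparisons turn on these genes: Rspo3 and Wnt16, which were almost confined to cortex libraries, Fzd10, the receptor gene with the largest difference in favour of accumbens among those tested, and Wnt9a, the member with the lowest p for diet in each region. They were read 5′ to 3′ on the gene's own strand from RefSeq promoter windows of the GRCr8 assembly, with CG pairs in capitals. The table held such a window for 32 of the 46 members, and none for Rspo2.
Rspo3 (chr1:30112279-30112528, plus strand): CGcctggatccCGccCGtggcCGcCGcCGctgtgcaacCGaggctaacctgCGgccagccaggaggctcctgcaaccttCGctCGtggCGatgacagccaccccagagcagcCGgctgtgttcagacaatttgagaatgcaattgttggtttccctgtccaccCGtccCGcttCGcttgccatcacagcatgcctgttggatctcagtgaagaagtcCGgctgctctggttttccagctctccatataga
Wnt16 (chr4:51786478-51786727, plus strand): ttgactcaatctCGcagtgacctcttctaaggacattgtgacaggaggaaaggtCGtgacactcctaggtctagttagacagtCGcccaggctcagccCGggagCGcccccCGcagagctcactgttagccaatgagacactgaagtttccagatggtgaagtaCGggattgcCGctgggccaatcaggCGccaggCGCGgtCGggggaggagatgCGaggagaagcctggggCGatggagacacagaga
Wnt9a (chr10:44593441-44593690, plus strand): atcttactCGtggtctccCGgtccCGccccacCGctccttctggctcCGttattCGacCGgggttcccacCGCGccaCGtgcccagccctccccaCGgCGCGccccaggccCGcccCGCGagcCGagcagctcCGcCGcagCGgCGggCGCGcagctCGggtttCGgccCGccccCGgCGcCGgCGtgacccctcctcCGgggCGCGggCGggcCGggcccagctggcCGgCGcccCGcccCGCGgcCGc
Fzd10 (chr12:33737560-33737809, minus strand): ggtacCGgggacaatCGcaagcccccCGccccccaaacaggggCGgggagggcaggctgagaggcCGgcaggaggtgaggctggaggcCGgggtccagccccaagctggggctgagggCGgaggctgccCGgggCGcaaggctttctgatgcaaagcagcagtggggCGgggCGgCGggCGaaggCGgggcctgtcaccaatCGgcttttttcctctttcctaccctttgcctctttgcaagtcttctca
The windows differed in CG content: that of Wnt9a held 41 CG pairs in 250 bases and was 81.2% G or C, against 16 pairs and 60.4% for Rspo3, 15 and 68.0% for Fzd10, and 14 and 58.8% for Wnt16. Over the 32 members the median was 21.5 CG pairs and 65.2% G or C, against 5 pairs and 51.2% over all 33469 windows. Both strands of each window were searched for 3 motifs. The TCF/LEF core, CTTTGAT or CTTTGAA, occurred in 7.58% of all windows and in those of 2 members, Dkk1 and Wnt8a. The E-box CAGATG occurred in 14% of all windows and in 1 member's, where it began 100 bases before the start of Wnt16. The TATA box TATAAA occurred in 12.9% of all windows and in those of Dkk1 and Ryk. A match says only that these letters are present.

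Library depth ranged from 4.34 M to 13.0 M reads assigned to accessions, so that 3 reads of a gene stood for 0.231 to 0.691 CPM, counts per M assigned reads, the unit of all levels below. CPM values are not corrected for transcript length, so levels were compared between libraries and never between genes. The tissue labels were checked with 8 markers of cortical glutamatergic neurons, whose summed level was 1927 to 2810 and 2720 to 3223 CPM in standard-diet and low-iron cortex. In 9 of the 10 accumbens libraries this sum was 69.8 to 120 CPM, and in standard-diet accumbens replicate 4 it was 527 CPM. The 8 markers of striatal projection neurons summed to 3431 to 6083 and 3689 to 5500 CPM in accumbens and to 296 to 358 CPM in cortex, and 4 oligodendrocyte markers to 3207 to 5257 CPM in accumbens against 574 to 1034 CPM in cortex. Markers of septum and basal forebrain, which border the accumbens, summed to 158 to 269.6 CPM in accumbens and 32.5 to 103 CPM in cortex. The 8 measured of 9 listed markers of meninges and fibroblasts summed to 1257 CPM in standard-diet cortex replicate 4, to 109 to 220 CPM in the other standard-diet cortex libraries, to 58.6 to 270.2 CPM in low-iron cortex, and to 62.9 to 82.0 and 53.5 to 83.2 CPM in standard-diet and low-iron accumbens. Adora2a and Tac1 of the striatal list, Aqp4 of the astrocyte list and Col1a2 of the meningeal list were at 0 in all 20 libraries, so a listed 0 does not show that a gene is silent. For many of the results that rest on either of these libraries numbered 4, a value without that library is also given.

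Of the 46 members, 44 had at least 1 read, while Fzd8, a Frizzled receptor gene, and Dkk1, a Wnt antagonist gene, were at 0 throughout. Wnt3a and Wnt8a had at most 1 read in any library. Wnt11, Wnt8b, Rspo1 and Sfrp5 had reads in most libraries but did not pass the filter on low counts in any comparison, Wnt11 for example standing at 0.362 to 2.43 CPM in standard-diet cortex. The heat map of the members places the high cortex values of Rspo2, Rspo3, Wnt16, Wnt9a and Wnt4 beside the high accumbens values of Fzd10 and Wnt9b, and shows 1 column, standard-diet cortex replicate 4, in which many members are at their highest.

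**Figure D1:**
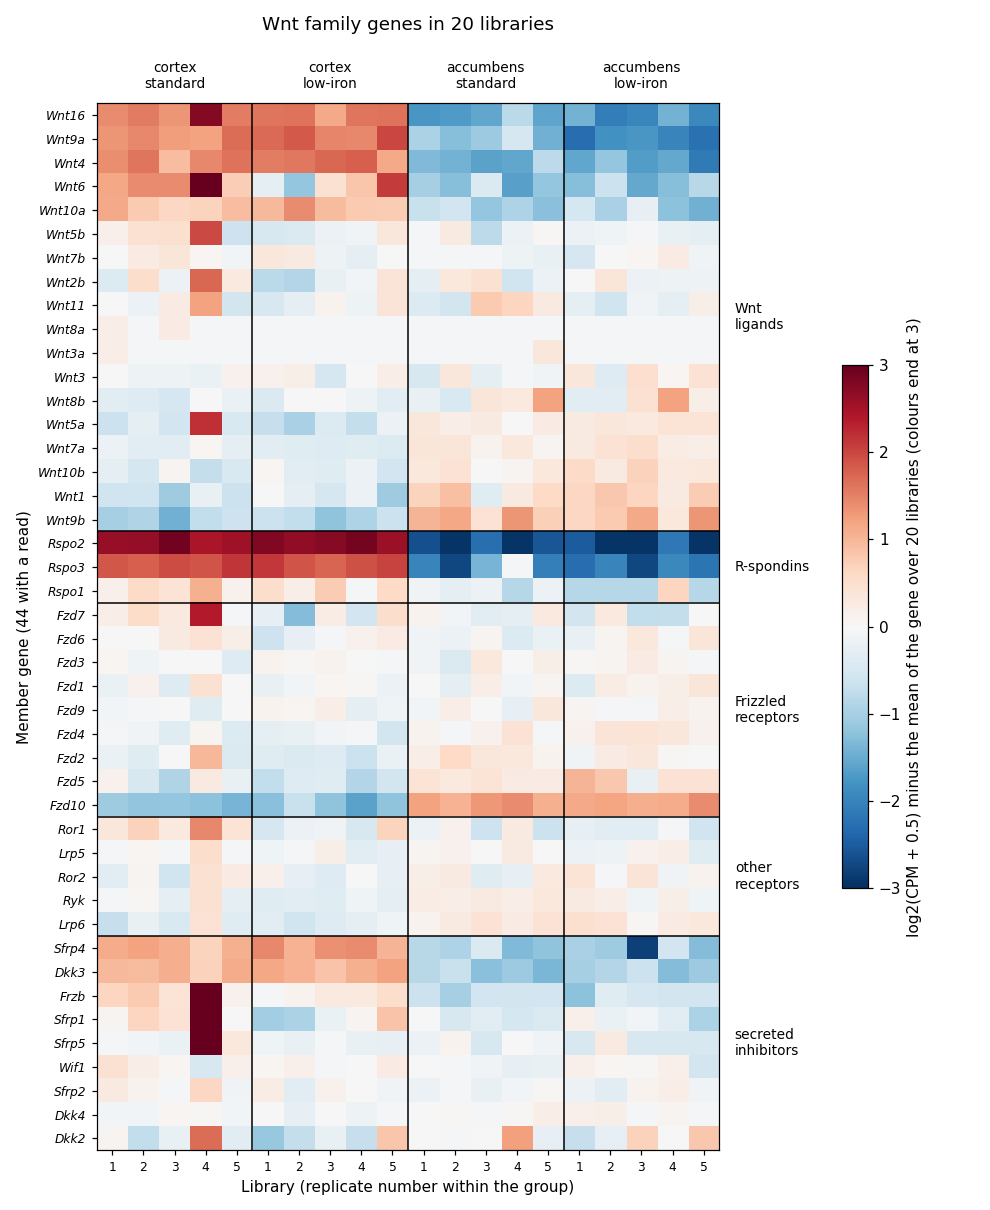
Each cell is log2(CPM + 0.5) of 1 member (rows, 44 genes with a read, grouped by role) in 1 library (columns, 5 per region and diet), minus that gene's mean over the 20 libraries; colours end at 3 in either direction. Rspo2 and Rspo3 were red in all 10 cortex libraries, and Sfrp1, Sfrp5, Frzb, Wnt6 and Wnt5a were at their highest in standard-diet cortex replicate 4.

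The first comparison set nucleus accumbens against prefrontal cortex under each diet. Under the standard diet 5 of the 38 members tested were higher in accumbens and 15 lower, by the quasi-likelihood F test of edgeR at an adjusted p under 0.05. Over all accessions 23.0% were called higher and 24.0% lower, so the share of members called lower lay above that of all accessions and the share called higher below it. Of the 15 called lower, 6 entered the test through cortex, where they are high (named below). The higher share therefore rests in part on the filter, and no trait of the family is read from it. With the low-iron diet 10 of 32 members tested were higher and 9 lower, against 30.1% and 29.0% of all accessions, shares that lie close to the members' own. The median log2 fold change, accumbens over cortex, was -0.35 over the 38 members and 0.008 over all accessions with the standard diet, and -0.07 and 0.03 with the low-iron diet. Under both diets 5 of 32 members were higher and 9 lower, where 21.2% and 22.2% of all accessions were. Of the members tested, 6 in each comparison (Rspo2, Rspo3, Wnt16 and Sfrp4 in both, Ror1 and Wnt6 with the standard diet, Wnt4 and Wnt9a with the low-iron diet) reached the filter in every cortex library and not in every accumbens library, so their place among the genes tested rests on the region where they are high. The same holds for accumbens with Wnt9b in both comparisons, Fzd5 with the standard diet and Wnt1 with the low-iron diet. These reached the filter in every accumbens library and not in every cortex library. So did Dkk2 with the standard diet, though its mean was not higher in accumbens (1.96 CPM against 2.10 CPM in cortex). Calls made under 1 diet alone do not show that the regions differed more under that diet; that difference is the interaction given further on. In whole tissue, fewer cells of a type and less RNA per cell cannot be told apart.

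Both R-spondin genes tested were lower in accumbens, and Rspo2 had the largest region difference of all members tested under either diet. Both entered the test through cortex, and 24.0% and 29.0% of all accessions were called lower with the standard and low-iron diet. Rspo2, on chromosome 7 of rn6, stood in cortex at 23.1, 23.2, 28.2, 20.5 and 21.7 CPM with the standard diet and at 26.0, 23.8, 25.1, 27.7 and 22.7 CPM with the low-iron diet. In accumbens 1, 0, 2, 0 and 1 reads were counted with the standard diet and 1, 0, 0, 2 and 0 with the low-iron diet, at most 0.369 CPM. Every cortex library was far above every accumbens library, and the accumbens values were at or under the level of 3 reads. Summed over libraries, 1213 cortex reads faced 4 accumbens reads with the standard diet, a depth-corrected ratio of 211 (95% interval 82.2 to 775, exact binomial, counting error only), and 1168 faced 3 with the low-iron diet, a ratio of 213 (72.7 to 1035). The edgeR log2 fold change was -7.65 (SE 0.30, adjusted p = 9.86e-09) and -7.67 (SE 0.27, adjusted p = 5.9e-14).

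Rspo3, on chromosome 1 of rn6 and encoding a second R-spondin, stood at 11.5, 10.9, 12.4, 11.7 and 14.2 CPM in standard-diet cortex and at 14, 11.8, 10.7, 12.1 and 13.0 CPM in low-iron cortex. Accumbens libraries had 0.339, 0, 0.755, 2.74 and 0.295 CPM with the standard diet and 0.182, 0.337, 0, 0.369 and 0.230 CPM with the low-iron diet. All cortex libraries were above all accumbens libraries, and the highest accumbens value, 15 reads, was that of standard-diet replicate 4. The log2 fold change was -4.16 (SE 0.51, adjusted p = 5.41e-05) with the standard diet, -5.25 (SE 0.37) without that library, and -5.75 (SE 0.26, adjusted p = 1.67e-12) with the low-iron diet. The same accumbens library held the high sum of cortical glutamatergic markers given above, with Slc17a7, the vesicular glutamate transporter gene of those neurons, at 323 CPM there and at or below 18.1 CPM elsewhere in accumbens. Neurod6 of the same list was at 8.03 CPM there and at most 1.34 CPM elsewhere in accumbens. In cortex Slc17a7 stood at 1228 to 2147 CPM and Neurod6 at 78.7 to 136 CPM. Rspo2 had no read in that accumbens library. The part of cortical tissue in its Rspo3 reads was not tested. Rspo1 had 6, 11, 7, 12 and 4 reads in standard-diet cortex and 3, 2, 2, 0 and 2 in standard-diet accumbens and was not tested.

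**Figure D2:**
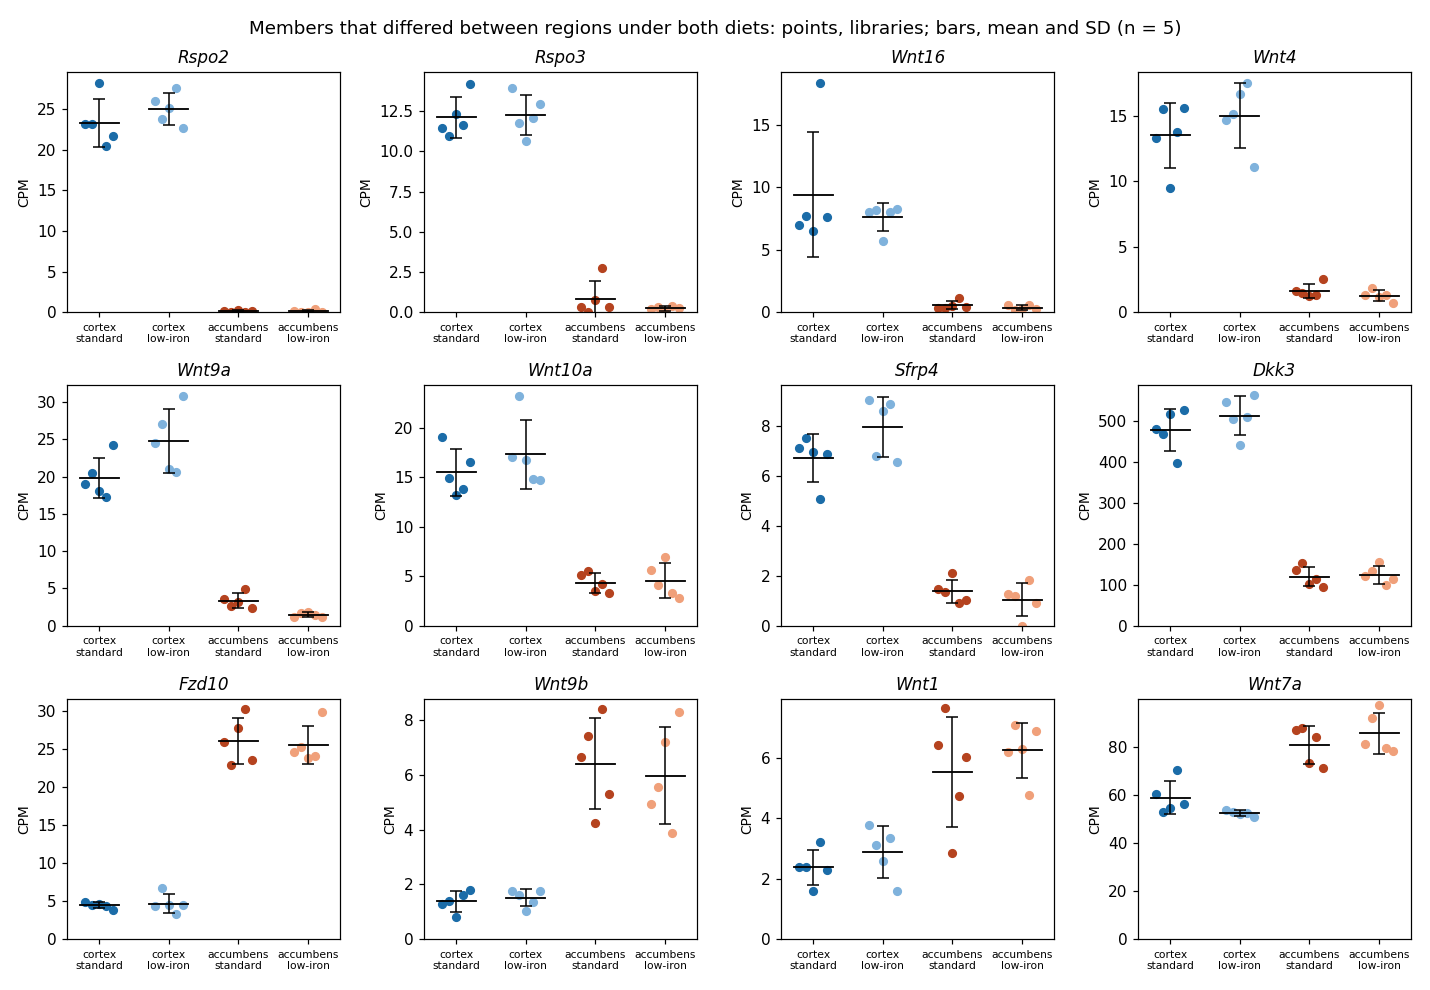
CPM (vertical axes, starting at 0) of 12 of the 14 members that passed the test in both region comparisons, with 1 point per library, horizontal lines at the mean and bars of 1 SD (n = 5). The top and middle rows hold genes lower in accumbens and the bottom row genes higher there; Rspo2 lay at 20.5 to 28.2 CPM in cortex and at most 0.369 CPM in accumbens.

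Of the Wnt ligand genes, 6 of 14 tested were lower and 4 higher in accumbens with the standard diet, and 4 lower and 5 higher of 12 with the low-iron diet. Those lower under both diets were Wnt16, Wnt4, Wnt9a and Wnt10a. Among all accessions 24.0% were called lower and 23.0% higher with the standard diet, and 29.0% and 30.1% with the low-iron diet. Wnt16, a ligand gene on chromosome 4 of rn6, stood at 6.98, 7.71, 6.48, 18.4 and 7.60 CPM in standard-diet cortex and 7.99, 8.22, 5.68, 8.07 and 8.24 CPM in low-iron cortex. Accumbens values were 0.339, 0.365, 0.453, 1.09 and 0.443 CPM with the standard diet and 0.547, 0.169, 0.225, 0.553 and 0.230 CPM with the low-iron diet, that is 1 to 6 reads a library. No accumbens library reached the lowest cortex library, and the highest cortex value was again that of standard-diet replicate 4. The log2 fold change was -4.26 (SE 0.40, adjusted p = 4.51e-06), -3.93 without that cortex library, and -4.53 (SE 0.28, adjusted p = 1.06e-10) with the low-iron diet.

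Wnt9a lies on chromosome 10 of rn6. Cortex libraries held 19.1, 20.4, 18.0, 17.3 and 24.2 CPM with the standard diet and 24.5, 27.1, 21.0, 20.6 and 30.8 CPM with the low-iron diet. In accumbens the values were 3.5, 2.68, 3.17, 4.93 and 2.36 CPM and 1.09, 1.69, 1.80, 1.47 and 1.15 CPM in the same order. The regions did not overlap, and the 5 low-iron accumbens libraries were the lowest of all 20. Wnt9a had a log2 fold change of -2.70 (SE 0.18, adjusted p = 2.99e-07) between regions with the standard diet and of -4.23 (SE 0.19, adjusted p = 9.95e-13) with the low-iron diet.

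Wnt4, known for its part in kidney and reproductive tract development, stood at 13.3, 15.5, 9.47, 13.8 and 15.6 CPM in standard-diet cortex and 14.6, 15.1, 16.7, 17.5 and 11 CPM in low-iron cortex. In accumbens it stood at 1.58, 1.46, 1.21, 1.28 and 2.51 CPM and 1.28, 1.86, 1.12, 1.29 and 0.691 CPM. Again no values overlapped, with a log2 fold change of -3.17 (SE 0.21, adjusted p = 2.86e-07) and -3.66 (SE 0.21, adjusted p = 5.31e-11) for standard and low-iron diet. Wnt10a, a ligand gene known from tooth and skin development, differed less, at 15.5 ± 2.37 CPM in standard-diet cortex against 4.29 ± 0.973 CPM in accumbens (SD, n = 5 each), with log2 fold changes of -1.95 (adjusted p = 2.65e-06) and -2.07 (adjusted p = 3.5e-07).

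Among ligand genes higher in accumbens under both diets, Wnt9b had the largest fold change. It stood at 6.66, 7.42, 4.23, 8.39 and 5.31 CPM in standard-diet and 4.92, 5.57, 7.20, 3.87 and 8.29 CPM in low-iron accumbens. Cortex libraries held 1.28, 1.39, 0.798, 1.62 and 1.81 CPM and 1.76, 1.61, 1.03, 1.36 and 1.75 CPM. The lowest accumbens library was above the highest cortex library. Wnt9b, tested through the region where it was high, had log2 fold changes of 2.11 (SE 0.25, adjusted p = 2.27e-05) and 1.79 (SE 0.23, adjusted p = 2.83e-06). Wnt1, the founding member of the family, needed for midbrain formation, stood at 6.44, 7.66, 2.87, 4.74 and 6.05 CPM in standard-diet accumbens and 6.20, 7.09, 6.30, 4.79 and 6.91 CPM in low-iron accumbens. In cortex it stood at 2.38, 2.39, 1.60, 3.24 and 2.29 CPM and 3.79, 3.13, 2.58, 3.36 and 1.58 CPM. One standard-diet accumbens library, replicate 3, lay within the cortex range. Wnt1 differed by 1.13 (SE 0.26, adjusted p = 0.00311) and 0.99 (SE 0.22, adjusted p = 0.000712) on the log2 scale, the low-iron test resting on the filter as for Wnt9b.

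Wnt7a, which acts on brain vessels and synapses, had the most reads of the ligand genes that were higher in accumbens. Its values were 87.0, 87.9, 73.1, 84.1 and 71.1 CPM in standard-diet and 81.1, 91.8, 97.6, 79.5 and 78.3 CPM in low-iron accumbens. Cortex values were 60.3, 53.0, 54.5, 70.5 and 56.1 CPM and 53.8, 52.7, 52.0, 52.6 and 50.7 CPM. The regions did not overlap within a diet although the differences were small, 0.35 (SE 0.08, adjusted p = 0.00466) and 0.57 (SE 0.07, adjusted p = 9.72e-07) on the log2 scale. Wnt10b had log2 fold changes of 0.56 (adjusted p = 0.0357) and 0.64 (adjusted p = 0.00552), and its call with the standard diet was lost with 7 alternatives, 6 of them the removal of 1 library (adjusted p = 0.0531 to 0.0841). Wnt7b passed the test with the standard diet alone (-0.33, adjusted p = 0.0202), at -0.24 with the low-iron diet (adjusted p = 0.172). Wnt3 did not pass in either (-0.14, 95% interval -0.64 to 0.35, and 0.04, -0.49 to 0.57).

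Wnt5a, the ligand of Ror2, Ryk and several Frizzled receptors, is known for signals that need no beta-catenin. In standard-diet cortex it stood at 7.23, 9.33, 7.58, 54.1 and 8.20 CPM, so that replicate 4 was 5.80 times the next highest library. Low-iron cortex held 6.91, 5.63, 8.60, 6.80 and 10.1 CPM. Accumbens values were 14.8, 13.4, 14, 11.5 and 13.7 CPM with the standard diet and 14, 14.8, 14.2, 15.5 and 15.4 CPM with the low-iron diet. Without the library at 54.1 CPM, all accumbens libraries were above all cortex libraries. With the standard diet the log2 fold change was -0.41 (SE 0.57, adjusted p = 0.593) over all libraries and 0.61 (SE 0.11, adjusted p = 0.000421) without cortex replicate 4, and with the low-iron diet it was 0.83 (SE 0.14, adjusted p = 4.08e-05).

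**Figure D3:**
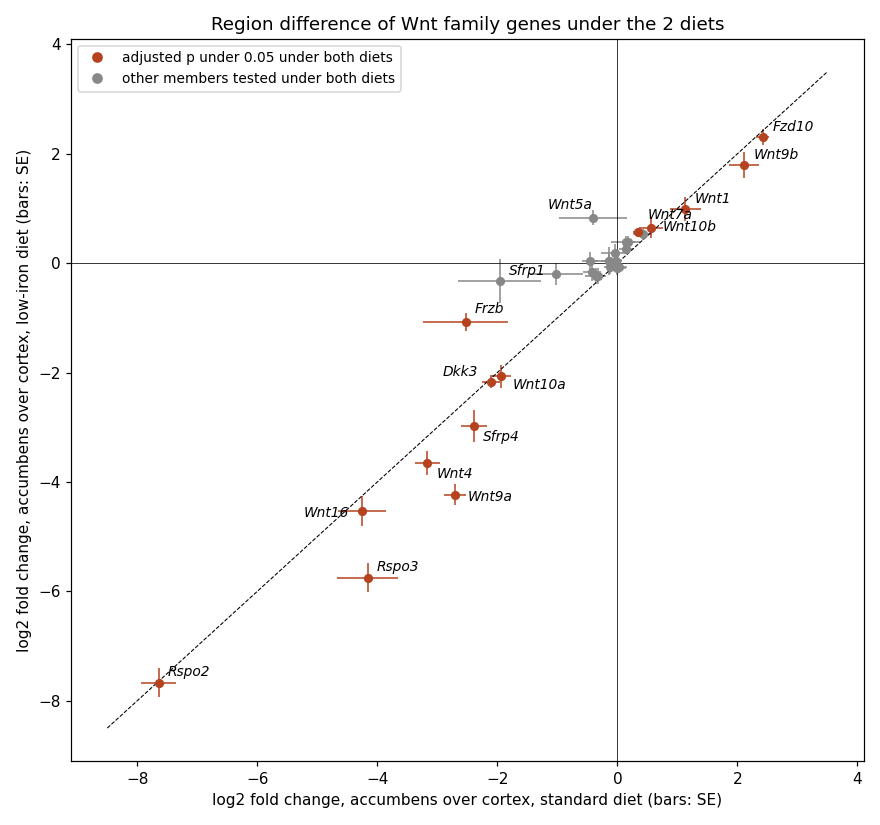
Log2 fold change of accumbens over cortex for the 32 members tested under both diets, with the standard diet on the horizontal and the low-iron diet on the vertical axis; bars are 1 SE and the dashed line marks equal values. Red points passed an adjusted p under 0.05 under both diets, from Rspo2 at -7.65 and -7.67 to Fzd10 at 2.43 and 2.30, and Wnt5a and Sfrp1 lie off the line with wide horizontal bars.

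Among the Frizzled receptor genes 1 of 9 tested was higher and 1 lower in accumbens with the standard diet, and 3 higher and 0 lower of 7 with the low-iron diet. Shares of all accessions were 23.0% higher and 24.0% lower with the standard diet, and 30.1% and 29.0% with the low-iron diet. Fzd10, on chromosome 12 of rn6, was the gene higher under both. It stood at 26.0, 23.0, 27.8, 30.3 and 23.6 CPM in standard-diet accumbens and 24.6, 25.3, 23.8, 24.2 and 30.0 CPM in low-iron accumbens. Cortex held 4.94, 4.55, 4.59, 4.39 and 3.86 CPM and 4.33, 6.70, 4.47, 3.26 and 4.47 CPM. Every accumbens library was more than 3 times the highest cortex library. The log2 fold change was 2.43 (SE 0.11, adjusted p = 2.33e-08) and 2.30 (SE 0.15, adjusted p = 2.52e-10). Fzd4, the receptor of brain vessels for norrin, was at a log2 fold change of 0.18 (adjusted p = 0.205) with the standard and 0.39 (adjusted p = 0.00336) with the low-iron diet. Fzd2 was at 0.14 (adjusted p = 0.677) and 0.39 (adjusted p = 0.00868), and without cortex replicate 4 the standard-diet value was 0.45 (adjusted p = 0.00793). Fzd6 was lower in accumbens with the standard diet alone (-0.46, adjusted p = 0.0104, against 0.03, adjusted p = 0.879). For Fzd1, Fzd3 and Fzd9, which passed in neither comparison, the 95% intervals of the log2 fold change lay within -0.44 to 0.32.

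Of the other receptor genes 0 of 5 tested were higher and 1 lower in accumbens with the standard diet, and 2 higher and 0 lower of 4 with the low-iron diet. All accessions were called higher in 23.0% and lower in 24.0% with the standard diet, and in 30.1% and 29.0% with the low-iron diet. Lrp6, a coreceptor of the beta-catenin branch, stood at 27.2, 30.7, 34.6, 30.5 and 34.5 CPM in standard-diet and 35.9, 34.4, 26.1, 30.2 and 32.0 CPM in low-iron accumbens. In cortex it stood at 15.7, 21.6, 18.5, 34.5 and 19.8 CPM and 20.5, 16.7, 19.4, 20.7 and 23.1 CPM. With the low-iron diet the regions did not overlap, and with the standard diet 1 cortex library, replicate 4, lay among the accumbens values. Lrp6 was higher in accumbens with the low-iron diet (0.53, SE 0.10, adjusted p = 0.000136) and just missed the threshold with the standard diet (0.42, SE 0.16, adjusted p = 0.0529), where it was at 0.60 (adjusted p = 0.000196) without that library. Ryk, a receptor with an inactive kinase domain, followed the same pattern at lower size, with 0.25 (adjusted p = 0.0227), 0.14 (adjusted p = 0.317) and, without cortex replicate 4, 0.25 (adjusted p = 0.0134). Lrp5 (-0.12 and -0.08) and Ror2 (-0.05 and 0.18) did not pass under either diet (adjusted p = 0.338, 0.586, 0.884 and 0.377). Ror1 was lower in accumbens with the standard diet (-1.29, adjusted p = 0.0122, and -1.02, adjusted p = 0.0144, without cortex replicate 4) on 29 accumbens reads in all.

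Of 8 secreted inhibitor genes tested with the standard diet, 5 were lower in accumbens and 0 higher, and of 7 with the low-iron diet 3 were lower and 0 higher. Shares of all accessions were 24.0% lower and 23.0% higher with the standard diet, and 29.0% and 30.1% with the low-iron diet. Sfrp4 was tested through cortex, and some calls below depend on standard-diet cortex replicate 4, so no trait of these genes is read from the counts. Dkk3, a divergent Dickkopf gene that unlike Dkk1 is not known to act through Lrp6, stood at 479, 467, 517, 395 and 526 CPM in standard-diet cortex and 544, 503, 441, 509.8 and 562 CPM in low-iron cortex. Accumbens held 135, 152, 102, 114 and 94.3 CPM and 122, 132, 156, 97.9 and 113 CPM. The lowest cortex library was above every accumbens library by more than 2 times, with log2 fold changes of -2.11 (SE 0.15, adjusted p = 6.55e-07) and -2.18 (SE 0.11, adjusted p = 4.64e-10). Its relative Dkk4 was at 29.5 ± 1.48 CPM in standard-diet cortex and 31.2 ± 1.94 CPM in standard-diet accumbens (SD, n = 5 each) and did not pass under either diet (-0.03, 95% interval -0.16 to 0.11, and 0.03, -0.13 to 0.19).

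Sfrp4, a secreted Frizzled-related gene, stood at 7.15, 7.55, 6.98, 5.08 and 6.87 CPM in standard-diet cortex and 9.08, 6.79, 8.60, 8.89 and 6.58 CPM in low-iron cortex. In accumbens the values were 1.47, 1.34, 2.11, 0.912 and 1.03 CPM and 1.28, 1.18, 0, 1.84 and 0.922 CPM. The regions did not overlap, and the log2 fold change was -2.39 (SE 0.22, adjusted p = 3.22e-06) and -2.98 (SE 0.29, adjusted p = 7.39e-08). Frzb, also called Sfrp3, was lower in accumbens under both diets, at -2.53 (SE 0.71, adjusted p = 0.0149) and -1.07 (SE 0.17, adjusted p = 2.41e-05), and at -1.42 (SE 0.16, adjusted p = 5.06e-06) with the standard diet without cortex replicate 4. Sfrp1 was lower with the standard diet (-1.96, adjusted p = 0.0413), at -0.81 (adjusted p = 0.000475) without that cortex library, and at -0.33 (adjusted p = 0.508) with the low-iron diet. Sfrp2 was at -0.42 (adjusted p = 0.0311) with the standard diet, a call lost without cortex replicate 4 (adjusted p = 0.0505), and at -0.17 (adjusted p = 0.380) with the low-iron diet. Wif1, which binds Wnt ligands directly, did not pass (-0.36 and -0.24, adjusted p = 0.112 and 0.160), and was at -0.49 (adjusted p = 0.00411) with the standard diet without cortex replicate 4.

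Standard-diet cortex replicate 4 was the highest of its 5 libraries for 25 of the 41 members with at least 10 reads in one of them, and for 12 of these it was at least 2 times the next. The low-iron cortex library with the highest meningeal sum, replicate 5, was the highest of its group for 18 of 40 members, with 3 at least 2 times the next. The same counts were not made over all accessions, so they do not set the members apart from other genes. Low-iron cortex replicate 5 also had the highest oligodendrocyte sum of its group, 1034 against at most 896 CPM. Its septum and basal forebrain sum was the highest too, 40.8 against at most 35.4 CPM. No other marker list had its highest sum of that group there. Over accessions with enough reads, standard-diet cortex replicate 4 differed from its group mates by a chi-square per degree of freedom of 31.4 to 37.2. Among those mates it was 2.92 to 4.37. In replicate 4 Sfrp1 stood at 126 CPM, against 13.0 to 20.2 CPM in the other standard-diet cortex libraries. Frzb stood there at 82.8 CPM against at most 13.3 CPM, Wnt6 at 44.4 CPM against at most 5.19 CPM, and Sfrp5 at 5.66 CPM against at most 0.362 CPM. Fzd7, Wnt5b, Dkk2 and Wnt2b stood at 11.7, 16.3, 5.89 and 4.74 CPM, against at most 2.93, 5.48, 1.62 and 1.77 CPM. Rspo2, Dkk3 and Sfrp4 went the other way, at their lowest of the 5 there (20.5, 395 and 5.08 CPM). Wnt9a, Fzd9, Wif1, Wnt10b and Wnt3 were also at their lowest of the 5 there (17.3, 13.1, 5.43, 2.31 and 1.62 CPM). Of the meningeal markers, the collagen genes Col1a1 and Col3a1 stood in that library at 419 and 486 CPM, against at most 84.2 and 73.1 CPM in the other standard-diet cortex libraries, and the transporter gene Slc6a13 at 124 against at most 19.7 CPM. The same library had the lowest sum of cortical glutamatergic markers of the 5, 1927 against 2699 to 2810 CPM, and the highest of septum and basal forebrain markers, 103 against 36.7 to 47.8 CPM. Striatal projection neuron, endothelial and mural, and oligodendrocyte markers were highest there too. They summed to 358, 521 and 997 CPM, against at most 306, 447 and 916 CPM. Sums for astrocytes, microglia and choroid plexus were also highest there, by smaller margins. The part of any of these tissues in the member values was not tested.

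**Figure D4:**
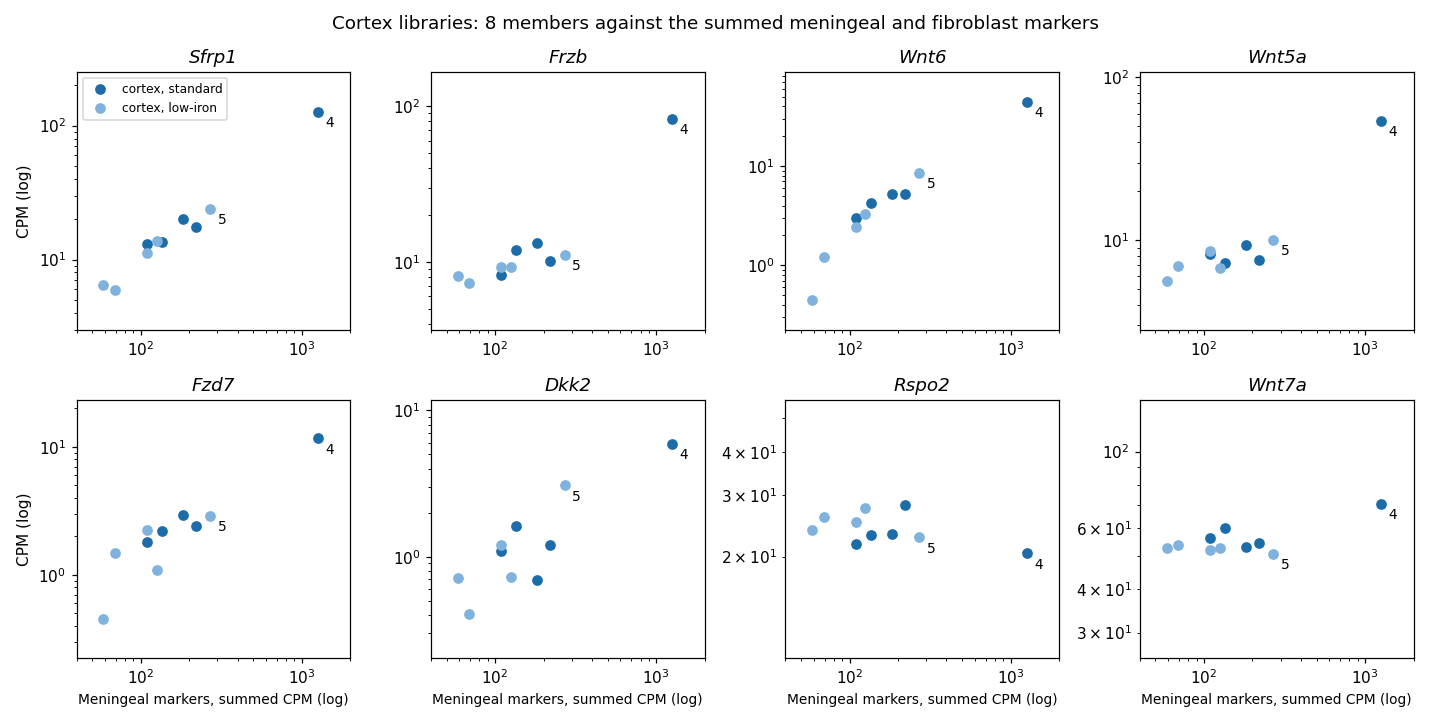
CPM of 8 members (vertical, log scale) against the summed CPM of the meningeal and fibroblast markers (horizontal, log scale) in the 10 cortex libraries, 1 point each, with standard-diet replicate 4 and low-iron replicate 5 numbered. Sfrp1, Frzb, Wnt6, Wnt5a, Fzd7 and Dkk2 were highest in standard-diet replicate 4, where the marker sum was 1257 CPM, whereas Rspo2 was lowest and Wnt7a was 70.5 CPM against 53.0 to 60.3 CPM in the other standard-diet cortex libraries.

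Without this library 25 members were called between regions with the standard diet: Fzd2, Fzd5, Lrp6, Ryk and Wnt5a as higher and Wif1 as lower joined 19 of the 20, and Sfrp2 was lost. Over all accessions the share called was then 26.8% higher and 27.3% lower. Of the 5 members called higher with the low-iron diet alone (Wnt5a, Fzd2, Fzd4, Lrp6 and Ryk), 4 passed with the standard diet once it was left out, the exception being Fzd4 (0.21, adjusted p = 0.116). Wnt6, a ligand gene called lower in accumbens with the standard diet (-4.56, SE 1.04, adjusted p = 0.00512), was at -3.17 (SE 0.31, adjusted p = 1.45e-06) without it. In low-iron cortex Wnt6 stood at 1.22, 0.447, 2.41, 3.26 and 8.51 CPM. Its highest value was that of replicate 5, which had the highest meningeal, oligodendrocyte, and septum and basal forebrain sums of that group. Wnt6 did not pass the filter on low counts between regions with the low-iron diet.

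The second comparison asked which members differed between the low-iron and the standard diet, within each region. In accumbens 0 of 28 members tested passed an adjusted p under 0.05 in edgeR, as was true of all accessions (0.0%), and DESeq2 also called 0 members. At an unadjusted p under 0.05 there was 1 member, against 4.04% of all accessions, and the same member was the only one whose diet groups did not overlap, against 0.928%. The log2 fold change, low-iron over standard, was above 0 for 20 members and below 0 for 8, with a median of 0.07 over the members and 0.002 over all accessions. The 6 inhibitor genes tested lay between 0.03 and 0.13, and the 8 Frizzled genes between -0.21 and 0.30.

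That member was Wnt9a. In standard-diet accumbens it had 31, 22, 21, 27 and 16 reads and in low-iron accumbens 6, 10, 8, 8 and 5 reads, which gave means of 3.33 ± 0.996 and 1.44 ± 0.314 CPM (SD, n = 5 each). Every low-iron library was below every standard-diet library, the closest values being 1.80 and 2.36 CPM. The log2 fold change was -1.17 (SE 0.26, 95% interval -1.73 to -0.60, unadjusted p = 0.000486), and after adjustment over 11202 accessions it did not pass (adjusted p = 0.972). Without standard-diet replicate 4, the accumbens library with the high cortical markers and the highest Wnt9a, it was -1.01 (SE 0.25). Wnt9a reached the filter in all standard-diet accumbens libraries and not in all low-iron ones, so it was tested only because of the group where it was higher. The low-iron accumbens libraries were also the shallower ones, with 5.13 ± 0.696 M assigned reads against 7.19 ± 1.35 M (SD, n = 5 each), and the part of depth was not tested. The authors' deposited table gives a log2 fold change of -1.18 for this comparison, with p = 0.000648 and an adjusted p of 0.999. The other members with the lowest p were Fzd6 (0.28, SE 0.15), Fzd2 (-0.21, SE 0.12), Fzd4 (0.18, SE 0.10) and Ryk (-0.14, SE 0.08), each with an adjusted p of 0.972.

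In cortex 0 of 38 members tested passed, again as for all accessions (0.0%), and DESeq2 called 0, giving no p-value for Frzb, Sfrp1, Wnt6 and Wnt5a. At an unadjusted p under 0.05 there were 2 members, against 5.99% of all accessions, and no member's diet groups were without overlap, against 1.09%. Fold changes were above 0 for 15 members and below 0 for 23, with a median of -0.08 against -0.001 over all accessions. Wnt9a had the lowest p, with a sign opposite to that in accumbens: the means were 24.8 ± 4.28 CPM in low-iron and 19.8 ± 2.73 CPM in standard-diet libraries (SD, n = 5 each). Its log2 fold change was 0.36 (SE 0.13, unadjusted p = 0.0160, adjusted p = 0.683), and in the authors' deposited table it is 0.36 with an adjusted p of 0.842. Ror1 was at -0.94 (SE 0.38, unadjusted p = 0.0279, adjusted p = 0.683) over 16, 24, 13, 30 and 12 standard-diet and 4, 9, 5, 6 and 21 low-iron reads, and at -0.64 (unadjusted p = 0.0780) without standard-diet replicate 4. Ror1 reached the filter in 5 standard-diet and 1 low-iron library, so that, as with Wnt9a in accumbens, it was tested only because of the group where it was higher; Fzd7 and Wnt6 were likewise below the filter in 1 low-iron library each. Ryk, Fzd7 and Wnt7a followed, at -0.26 (SE 0.12), -1.32 (SE 0.61) and -0.14 (SE 0.07), with adjusted p = 0.683 for each. Across the alternative runs Ryk ranged from -0.32 to -0.14 and Wnt7a from -0.17 to -0.08. Standard-diet replicate 4 was the highest library of its group for both, at 43.9 and 70.5 CPM.

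Several cortex members had diet fold changes beyond 1 on the log2 scale that shrank without standard-diet cortex replicate 4. Wnt6 went from -1.83 to -0.41, Sfrp1 from -1.54 to -0.36, Frzb from -1.40 to -0.27, Fzd7 from -1.32 to -0.56, Wnt5a from -1.11 to -0.09 and Wnt2b from -1.06 to -0.45. None of them passed with or without it (adjusted p = 0.683 with it and 0.962 to 0.983 without). Dkk2 went from -0.63 to 0.18. Wnt9a changed little (0.31). Of the R-spondin genes in cortex, Rspo2 was at 0.13 (95% interval -0.08 to 0.34) and Rspo3 at 0.05 (-0.17 to 0.28), intervals that, like those of most members tested, leave out a change of 2 times in either direction.

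**Figure D5:**
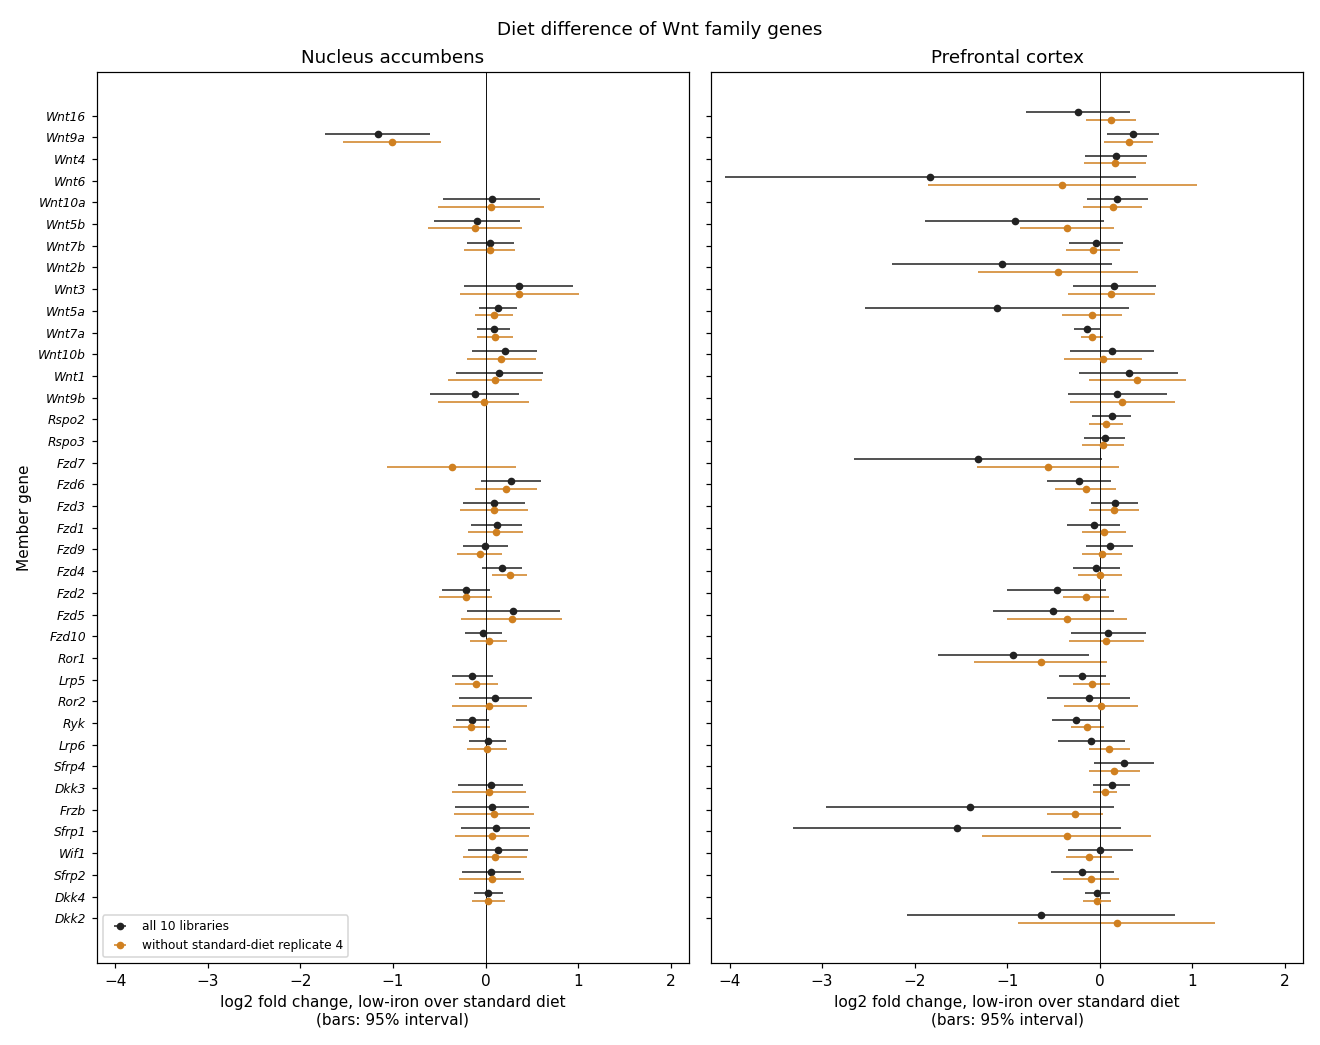
Log2 fold change of low-iron over standard diet (horizontal) for each member tested in accumbens (left) and cortex (right), with bars of the 95% interval; black uses all 10 libraries and orange leaves out standard-diet replicate 4 of that region. Wnt9a is the member farthest from 0 in accumbens at -1.17, and in cortex the wide black bars of Wnt6, Sfrp1, Frzb and Wnt5a move toward 0 in orange.

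The third comparison, the interaction of diet and region, asked whether the diet difference in accumbens departed from that in cortex. None of 38 members passed (0.0% of all accessions did), DESeq2 called 0, and 2 members had an unadjusted p under 0.05, against 5.37% of all accessions. Wnt9a had the lowest p, with a difference of -1.54 between the log2 fold changes of the regions (SE 0.29, 95% interval -2.14 to -0.94, unadjusted p = 2.66e-05, adjusted p = 0.314). It was -1.39 without accumbens replicate 4 and -1.48 without cortex replicate 4 of the standard diet, and the adjusted p stayed above 0.05 in every alternative run. Fzd6 was at 0.49 (SE 0.22, unadjusted p = 0.0363, adjusted p = 0.818), its means being 8.82 ± 1.26 and 7.32 ± 1.73 CPM in standard-diet and low-iron cortex and 6.88 ± 0.901 and 8.40 ± 1.51 CPM in accumbens (SD). Fzd5, with 0.78 (SE 0.39, unadjusted p = 0.0568), came next. Across the alternative runs Fzd6 ranged from 0.37 to 0.58 and Fzd5 from 0.60 to 0.94.

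Members that neighbour each other in the genome were set side by side. In the gene order of GRCr8, 4 pairs of members are adjacent among protein-coding genes: Wnt3a with Wnt9a, Wnt9b with Wnt3, Wnt10b with Wnt1, and Wnt6 with Wnt10a. Wnt1 and Wnt10b were both higher in accumbens under both diets, as given above, and Wnt6 and Wnt10a both lower with the standard diet. Wnt9b was higher in accumbens while Wnt3 did not pass. Wnt3a had 1 read in each of 2 libraries and none in the others, whereas Wnt9a had reads in all 20, from 5 to 351 a library.

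Of 57 other genes of the pathway, 49 were found and 45 tested. With the standard diet 10 were higher and 16 lower in accumbens, against 23.0% and 24.0% of all accessions. With the low-iron diet 14 were higher and 15 lower, against 30.1% and 29.0%. The values are log2 fold changes, accumbens over cortex or low-iron over standard, with the standard diet first. For diet and for the interaction 0 passed, with 1 gene in accumbens (Celsr3, 0.12), 2 in cortex (Dvl2, -0.21, and Lef1, -0.37) and 1 in the interaction (Rnf43, 0.49) at an unadjusted p under 0.05. Among the 3 secretion genes Wls, which carries Wnt proteins to the cell surface, was lower in accumbens under both diets (-0.88, SE 0.18, adjusted p = 0.00199, and -0.76, SE 0.10, adjusted p = 3.47e-06). Porcn, the acyltransferase that adds their lipid, passed with the low-iron diet alone (-0.20, adjusted p = 0.00717, against -0.06).

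Of the 5 membrane regulators tested, 2 were higher in accumbens with the standard diet and 4 with the low-iron diet. Among all accessions 23.0% were called higher and 24.0% lower with the standard diet, and 30.1% and 29.0% with the low-iron diet. These shares apply to each list here, and no trait of a list is read from such small counts. Kremen1, a Dickkopf coreceptor, was higher by 2.02 on the log2 scale (SE 0.24, adjusted p = 4.98e-05) and 2.41 (SE 0.14, adjusted p = 1e-10). Rnf43, the ligase opposed by R-spondins, was higher by 0.83 (adjusted p = 0.000647) and 1.32 (adjusted p = 4.56e-08). Ptk7, a receptor of the planar polarity branch, was at 0.06 (adjusted p = 0.867) and 0.75 (adjusted p = 0.000219), and Lgr4, an R-spondin receptor, at 0.20 (adjusted p = 0.0992) and 0.26 (adjusted p = 0.00207). Of 17 cytoplasmic genes 4 were higher and 8 lower with the standard diet and 4 and 7 with the low-iron diet. Ctnnb1, which encodes beta-catenin, was lower by a small step (-0.23 and -0.21), as was the destruction complex scaffold Apc (-0.66 and -0.63), whereas Axin2, a target of the pathway, was at 0.07 (adjusted p = 0.481) and 0.21 (adjusted p = 0.0289).

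Of 10 nuclear genes tested, 3 were higher and 3 lower under each diet. For this list and the next 2, the shares of all accessions were again 23.0% higher and 24.0% lower with the standard diet. With the low-iron diet they were 30.1% and 29.0%. The TCF gene Tcf7l2 was higher in accumbens (0.83, adjusted p = 0.00278, and 1.09, adjusted p = 3.39e-05), as was the Groucho family corepressor Tle4 (1.31 and 1.41), while its relatives Tle3 (-1.09 and -1.15) and Tle2 (-0.81 and -0.91) were lower. Of 8 planar polarity genes 4 were lower and 0 higher with the standard diet, and 3 lower and 2 higher with the low-iron diet, with Prickle1 at -0.82 and -0.85 and Prickle2 at -0.42 and -0.43. Of 8 listed target genes tested, some of which also stand in the lists above, 3 were higher and 0 lower under each diet, Myc among them (1.02, adjusted p = 0.00165, and 1.25, adjusted p = 1.08e-06). The regions also differ in their neuronal and oligodendrocyte markers, as given above, and the part of those cells in the region differences was not tested.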

How the data were processed

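Poly(A) RNA from tissue dissected from brain sections was sequenced in 20 libraries as single reads of 75 bases. Per the submitters' processing notes, the tools were Trimmomatic 0.36.3, STAR, HTSeq, DESeq and DESeq2, with the genome build rn6; the notes do not say which made which values. The authors deposited raw read counts per RefSeq accession for each library, and tables of their own diet comparisons with log2 fold changes and p-values. Each deposited library file holds 3 columns of counts whose layout is that of STAR's gene count output, without strand and for each strand; the files carry no header to say so. The counts without strand were used here, since 49.6 to 50.0% of strand-assigned reads lay on the first strand, so reads of a gene and of an overlapping antisense gene cannot be told apart. Rows that name no gene held 50.8 to 60.7% of reads and were left out of library totals.

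Here, CPM is the count per M reads assigned in a library. Symbols came from the deposited tables for 16992 of 18288 accessions and from a RefSeq table of GRCr8 for 1220, while 76 had none. Where a member had several accessions, that with the highest mean count was kept. Accessions were tested with edgeR 4.0.16 in R 4.3.3 (TMM normalization, filterByExpr with a minimum count of 10, robust quasi-likelihood F test), with p-values adjusted by Benjamini-Hochberg over all accessions tested in a comparison. Each region or diet comparison used its own 10 libraries and the interaction all 20, with no covariate. The tests were tried on simulated counts first. SE was obtained from each fold change and its F statistic. Depth, 4.34 M to 13.0 M assigned reads, limits precision for members with few reads. The closest of 40 pairs of libraries within a group differed by 2.03 times the chi-square of sampling noise per degree of freedom, so no library was a copy of another in its group. Pairs across groups were not compared.

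Members past the threshold in both region comparisons, the 5 with the lowest p for diet in each region and the 3 with the lowest p in the interaction were named by rule; other members and fixed lists of pathway genes and cell markers are given by counts, with some values. Members, lists and comparisons were chosen with earlier results of these data known. Alternatives were DESeq2 1.42.0, RLE size factors, no filter, accessions summed per gene, 1 fit of all libraries, a replicate block and leaving out each library; a fit without both standard-diet libraries numbered 4 was added after seeing the data.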

Additional observations from a re-analysis of the deposited data

Results flagged for a closer look

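Each member's 5 values per group were examined for a library whose gap to its nearest neighbour exceeded 0.71 of the group's range (Dixon's criterion). Of 149 such groups with at least 10 reads in 1 library, 24 held one. For independent, normally distributed values the criterion flags about 1 in 20 groups. That rate need not hold here, since counts are not normal and the members share the same libraries. The share flagged over all accessions was not taken. Of the 24, 14 lay in standard-diet cortex replicate 4.

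In that library the highest values were 126 CPM for Sfrp1, 82.8 for Frzb and 5.66 for Sfrp5 among the inhibitor genes, with the nearest other library at 20.2, 13.3 and 0.362 CPM. Dkk2 stood at 5.89 CPM. Among ligand genes it held 54.1 CPM for Wnt5a, 44.4 for Wnt6, 18.4 for Wnt16, 16.3 for Wnt5b and 4.74 for Wnt2b. Among receptor genes it held 42.8 CPM for Lrp5, 31.2 for Fzd2, 11.7 for Fzd7 and 3.47 for Ror1. Sfrp4 was lowest there, at 5.08 CPM against 6.87 in the nearest library. The meningeal markers of the same library summed to 1257 CPM, its septum and basal forebrain markers to 103 CPM and its cortical glutamatergic markers to 1927 CPM. Other marker lists also had the highest sum of the group there, as given above. The part of these tissues was not tested.

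The other 10 values were spread over 7 libraries. In standard-diet accumbens replicate 4, Rspo3 was highest at 2.74 CPM and Dkk2 at 4.20 CPM. Wnt4 at 2.51 CPM and Dkk4 at 34.5 CPM were highest in standard-diet accumbens replicate 5, and Frzb was lowest at 3.53 CPM in replicate 2. In low-iron accumbens replicate 5, Fzd10 was highest at 29.95 CPM and Wif1 lowest at 5.07 CPM. In low-iron cortex Wnt10a was highest at 23.2 CPM in replicate 2, Wnt16 lowest at 5.68 CPM in replicate 3, and Ror1 highest at 1.84 CPM in replicate 5.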

How the results depend on the processing

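With the standard diet 20 of 38 members were called between regions, where 47.0% of all accessions were. DESeq2 also called 20 (47.0% of all), 17 of them shared, with Fzd7, Lrp6 and Wnt5b gained; it gave no p-value for Frzb, Sfrp1, Wnt6 and Wnt5a, which therefore do not count as lost. Leaving out 1 library gave 17 to 25 calls (42.1 to 54.0% of all), and 1 fit of all 20 libraries gave 23 (51.2%). With the low-iron diet 19 of 32 were called (59.1% of all), 18 to 20 without 1 library (55.4 to 57.8%), 22 of 42 with no filter (47.0%), and 15 in 1 fit of all libraries (57.6%), where Frzb, Fzd2, Ryk and Wnt5a were lost. With the replicate block 18 members were called with the standard diet (44.7% of all), with Sfrp1, Sfrp2 and Wnt10b lost and Lrp6 gained, 19 with the low-iron diet (60.8%), and 0 for diet and interaction. Between regions 9 of 10 same-number correlations of deviations were above 0 (-0.04 to 0.14), 2 were above 0.1, and 5 were the best match of their library; between diets they ranged from -0.31 to 0.16. As the labels do not say that a number marks a shared animal, the numbers were not used to pair libraries. Diet and interaction gave 0 member calls in every alternative run. Over all accessions they also gave 0, apart from 1 accession with DESeq2 for diet in accumbens (0.0089%). Leaving out both standard-diet libraries numbered 4, chosen after seeing the data, gave 25 calls with the standard diet (52.5%) and 0 in the interaction. For the 14 members called under both diets, the 5 of lowest p for diet in each region and the 3 of lowest p in the interaction, no fold change reversed in these alternatives, and calls were lost for Wnt10b with the standard diet in 7 and for Frzb with the low-iron diet in the fit of all libraries (-1.08, adjusted p = 0.133). The cause of these losses was not tested. Among the members outside this set, fold changes that changed sign without cortex replicate 4 include those of Wnt5a between regions with the standard diet (-0.41 to 0.61) and of Dkk2 between diets in cortex (-0.63 to 0.18). Depth limits Rspo2, Rspo3 and Wnt16 in accumbens, where most libraries had 3 reads or fewer.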
